A study of Mus musculus with 4 samples.

Results

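The expression of 8 NF-kB inducible genes of activation, adhesion and stress was examined in regulatory T cells (Treg cells) with and without the NF-kB subunit RelA (p65). The genes were Cd83, Icam1, Ier3, Gadd45b, Sdc4, Irf1, Cd40 and Cd44, taken by exact symbol from a count table of 27179 genes. All 8 were found once each, and 6 of them stood among the 11172 genes with enough counts to be tested. RNA sequencing libraries were made from CD4+Foxp3+ Treg cells taken at steady state from C57BL/6 mice, with spleen and peripheral lymph nodes as the source. The WT group held 2 libraries, and the P65KO group, RelA-deficient by its labels, held another 2, written here as the P65KO-labelled pair. The labels give no age or sex, no Cre or promoter behind the RelA loss, and no statement on whether animals were pooled. The comparison addresses how Treg gene expression depends on RelA.

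NF-kB transcription factors are dimers that are held in the cytoplasm by IkB proteins until receptors for antigen, costimulation or TNF family ligands trigger IkB degradation. RelA carries a transactivation domain and, mostly paired with p50, binds kB sites in the promoters and enhancers of inducible genes. In T cells these genes include surface molecules of activation and adhesion as well as regulators that limit stress signalling and cell death.

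Library totals ran from 4513863 to 4624230 counts, and levels are given as CPM, the count relative to the library's counts in tested genes, scaled by the trimmed mean of M values (TMM). On that scale 3 counts in 1 library made 0.646 to 0.664 CPM. Rela had counts of 875 and 806 in WT and of 820 and 909 in the P65KO-labelled pair, a level over the whole gene that does not check a partial deletion, so every direction rests on the group labels. The defining Treg genes were present, with Foxp3 at 374 CPM in WT and 457 CPM in the P65KO-labelled pair and Cd4 at 1099 and 997 CPM. Xist had counts of 494 and 608 in WT and of 0 and 2 in the P65KO-labelled pair, while Ddx3y, on the Y chromosome, had 0 in both WT libraries and 302 and 404 in the others. The genotype label and this sex-linked difference cannot be told apart for any gene below. In bulk libraries, fewer cells expressing a gene and less RNA per cell cannot be told apart either.

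Promoter sequence was given for 6 of the 8 genes (RefSeq, GRCm38.p6), and is shown for 5 of them because it bears on the kB sites through which RelA acts. The 250 bases before each RefSeq start were searched on both strands for 3 kB patterns, namely the kB consensus, GGGNNTTCC and GGANNTTCC, which can overlap one another. The kB matches are in capitals, and each sequence runs 5′ to 3′ toward the start.
Icam1, chr9:21015690-21015939, plus strand: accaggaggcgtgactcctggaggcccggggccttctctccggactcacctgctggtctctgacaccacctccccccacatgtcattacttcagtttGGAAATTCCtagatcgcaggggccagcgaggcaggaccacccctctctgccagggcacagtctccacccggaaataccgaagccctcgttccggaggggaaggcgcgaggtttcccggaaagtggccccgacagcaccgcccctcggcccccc
Ier3, chr17:35821463-35821712, plus strand: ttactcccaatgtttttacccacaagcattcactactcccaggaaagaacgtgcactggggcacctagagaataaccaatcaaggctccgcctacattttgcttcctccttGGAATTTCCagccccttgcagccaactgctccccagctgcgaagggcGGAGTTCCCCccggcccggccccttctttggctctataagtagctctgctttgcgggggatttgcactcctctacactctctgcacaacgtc
Sdc4, chr2:164443189-164443438, minus strand: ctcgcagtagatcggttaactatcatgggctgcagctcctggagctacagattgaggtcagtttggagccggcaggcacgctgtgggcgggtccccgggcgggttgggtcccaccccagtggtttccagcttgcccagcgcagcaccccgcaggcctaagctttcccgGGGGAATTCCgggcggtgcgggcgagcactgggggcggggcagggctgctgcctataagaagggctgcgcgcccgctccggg
Irf1, chr11:53769764-53770013, plus strand: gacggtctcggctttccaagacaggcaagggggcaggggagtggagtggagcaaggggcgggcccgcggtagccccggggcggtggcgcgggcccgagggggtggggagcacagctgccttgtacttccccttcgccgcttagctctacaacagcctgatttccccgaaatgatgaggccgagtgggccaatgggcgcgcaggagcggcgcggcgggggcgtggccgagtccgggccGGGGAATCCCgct
Gadd45b, chr10:80929841-80930090, plus strand: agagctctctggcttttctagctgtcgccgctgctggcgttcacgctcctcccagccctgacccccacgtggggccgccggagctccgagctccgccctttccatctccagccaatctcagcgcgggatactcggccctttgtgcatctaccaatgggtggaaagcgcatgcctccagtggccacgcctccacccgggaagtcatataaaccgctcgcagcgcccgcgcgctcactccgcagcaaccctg

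At least 1 kB pattern was found in 4 of the 6 promoters, those of Icam1, Ier3, Sdc4 and Irf1, counted by 1 start each. Of 32841 starts of all genes, several for some genes, 10.2% held one. The 6 genes were picked as known NF-kB inducible genes. Their GC content was 54.4 to 71.2%, against a mean of 53.2% over all starts, so the shares do not compare like with like. In Icam1 the match GGAAATTCC lay 153 to 145 bases before the start. Ier3 held GGAATTTCC at 139 to 131 bases and, on the opposite strand, a kB consensus match that reads GGAGTTCCCC at 92 to 83 bases before the start. In Sdc4 the kB consensus match GGGGAATTCC at 82 to 73 bases overlapped the GGGNNTTCC match GGGAATTCC. The Irf1 match GGGGAATCCC lay 13 to 4 bases before the start shown, and the other RefSeq start of Irf1 had no match. The windows of Gadd45b and Cd44 held none of the 3 patterns. Icam1 and Irf1 also held the GAS pattern TTCNNNGAA of interferon-gamma responsive promoters, which 7.02% of starts held. Gadd45b alone among the 6 had the exact letters TATAAA, 46 to 41 bases before its start, as did 12.4% of starts. Other forms of the TATA box were not searched. A match is a description of the letters and shows no binding, and no match says only that these letters are not in this window.

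**Figure D1:**
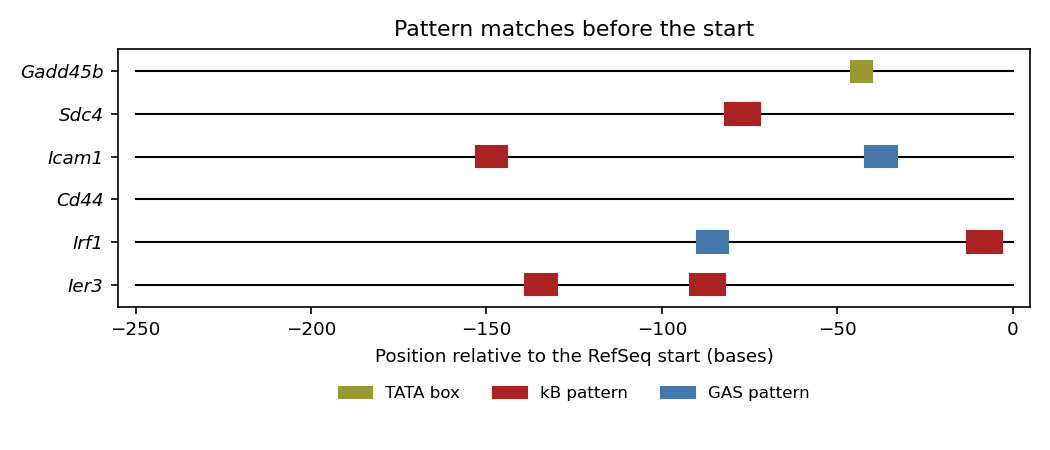
Matches to the searched patterns in the 250 bases before the RefSeq start of 6 genes, with the position in bases from the start on the horizontal axis and 1 line per gene. Red boxes are kB patterns, blue boxes the GAS pattern and the yellow box the exact letters TATAAA (labelled TATA box). A kB pattern is on 4 of the 6 lines, and Gadd45b and Cd44 carry none.

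All 6 tested genes were lower in the P65KO-labelled pair (quasi-likelihood test of edgeR, with Benjamini-Hochberg adjusted p-values over every gene tested), where 11.7% of all genes tested were lower and 20.7% changed in either direction. Their median log2 fold change was -1.35, and that of all genes tested was 0.00. Each of the 6 was lower in both P65KO-labelled libraries than in both WT libraries, which held for 30.9% of all genes tested. The members, and all gene lists below, were chosen with earlier results of these data known, so counts over them are not independent support. Cd83 fell furthest, followed by Gadd45b, Sdc4, Icam1 and Cd44, and Irf1 fell least. Cd40 and Ier3 were at or near the counting floor in at least 1 group and were not tested.

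**Figure D2:**
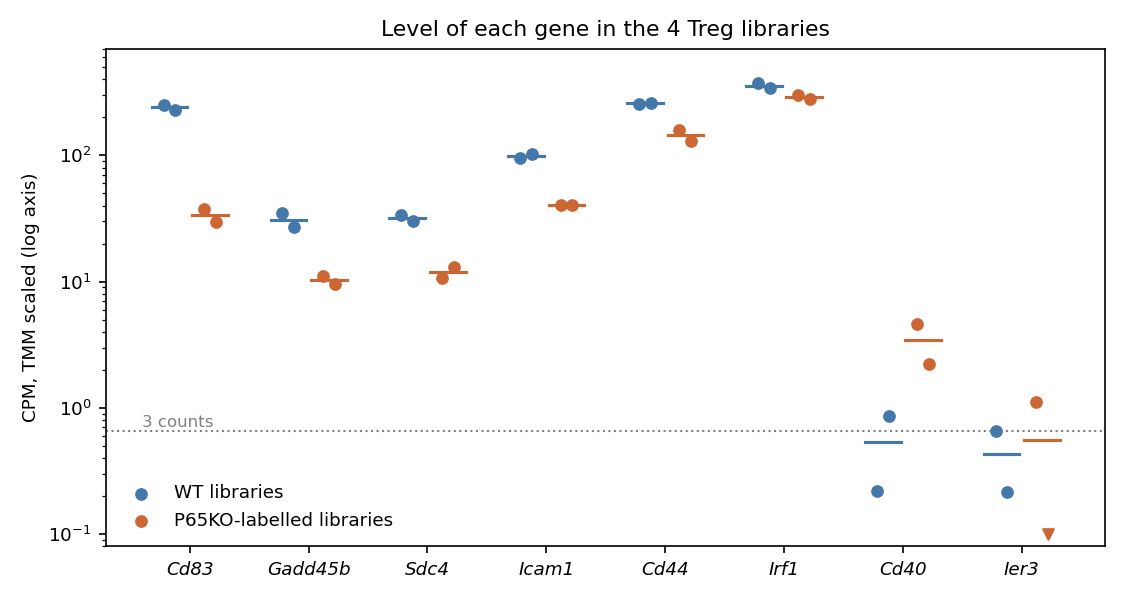
Expression of the 8 genes in each library, in TMM-scaled CPM on a log axis, with 1 point per library and a bar at the mean of each group (n = 2). The triangle stands for 0 counts, drawn at the foot of the axis, and the dotted line marks 3 counts. For the 6 genes on the left the groups do not overlap and the P65KO-labelled pair is lower, as for 30.9% of all genes tested. Those of Cd40 do not overlap either, with the P65KO-labelled pair higher, at low counts. Ier3 lies at the floor in both groups.

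Cd83 encodes an immunoglobulin superfamily molecule of activated lymphocytes and mature dendritic cells, which stabilises MHC class II and CD86 at the surface. Its gene, Entrez 12522, lies on chromosome 13 from 43785112 to 43803133 (gene positions are from RefSeq on GRCm38.p6). It stood at 252 and 230 CPM in WT and at 37.5 and 29.7 CPM in the P65KO-labelled pair. Both P65KO-labelled libraries were far below both WT libraries, with group means of 241 ± 15.5 and 33.6 ± 5.53 CPM (SD, n = 2 each). The fall was 7.16-fold (95% interval 5.96 to 8.61; edgeR, Benjamini-Hochberg adjusted p = 1.92e-08), and 13.9% of the WT level remained. By log2 fold change, Cd83 ranked 143 from the lowest of 11172 genes. Its 95% interval did not overlap that of any of the other 5 tested members.

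Icam1 encodes the adhesion molecule through which a cell is bound by the integrin LFA-1 on its partner, and is among the best known kB targets (Entrez gene 15894, chromosome 9, 21015940 to 21028814). It had counts of 436 and 474 in WT and of 183 in each P65KO-labelled library, or 94.6 and 102 against 40.4 and 40.5 CPM. The P65KO-labelled pair thus lay close together and well below WT. Icam1 fell 2.43-fold (95% interval 2.07 to 2.86; edgeR, Benjamini-Hochberg adjusted p = 4.51e-06).

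Sdc4 encodes syndecan-4, a membrane heparan sulphate proteoglycan that works with integrins in focal adhesions (Entrez gene 20971, chromosome 2, 164424247 to 164443188). Its levels were 33.4 and 30.3 CPM in WT and 10.6 and 13.1 CPM in the P65KO-labelled pair. Each P65KO-labelled library was below both WT libraries, and the fall was 2.69-fold (95% interval 2.06 to 3.52; edgeR, Benjamini-Hochberg adjusted p = 1.15e-04).

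Cd44 encodes the hyaluronan receptor that marks antigen-experienced and effector T cells (Entrez gene 12505, chromosome 2, 102811141 to 102901669). It was at 256 and 261 CPM in WT and at 158 and 131 CPM in the P65KO-labelled pair. The WT pair was tight, the P65KO-labelled pair was wider, and the groups did not overlap. Cd44 fell 1.79-fold (95% interval 1.53 to 2.10; edgeR, Benjamini-Hochberg adjusted p = 1.05e-04), with 55.8% of the WT level remaining. The RefSeq table places a small nuclear RNA gene, Gm23731, within the span of Cd44, and no other member overlapped an annotated gene.

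Gadd45b encodes a small stress protein that binds the kinase MKK7 and restrains JNK signalling downstream of NF-kB (Entrez gene 17873, chromosome 10, 80930091 to 80932204). It had counts of 162 and 125 in WT and of 50 and 43 in the P65KO-labelled pair, or 35.2 and 26.9 against 11.0 and 9.52 CPM. Both P65KO-labelled libraries were below both WT libraries, and the fall was 3.01-fold (95% interval 2.24 to 4.06; edgeR, Benjamini-Hochberg adjusted p = 1.15e-04).

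Irf1 encodes a transcription factor of interferon and TNF responses that drives antigen presentation genes (Entrez gene 16362, chromosome 11, 53770014 to 53778374). It was at 372 and 342 CPM in WT and at 301 and 281 CPM in the P65KO-labelled pair. The groups did not overlap, but the lowest WT and the highest P65KO-labelled library were close. The fall was 1.23-fold (95% interval 1.07 to 1.41; edgeR, Benjamini-Hochberg adjusted p = 0.0398). This call was lost when any 1 of the 4 libraries was left out (edgeR, Benjamini-Hochberg adjusted p from 0.0971 to 0.261), with no filter on low counts (0.123), with the replicate number as a block (0.0823) and with DESeq2 (0.0729). The 95% interval of Irf1 did not overlap that of any other tested member.

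Among the remaining members the order of the falls was less clear. The intervals of Gadd45b, Sdc4 and Icam1 overlapped one another, and that of Cd44 overlapped those of Sdc4 and Icam1 but not that of Gadd45b. Cd83, Gadd45b, Sdc4, Icam1 and Cd44 passed the threshold in all 12 other settings tried. Their log2 fold changes over those settings ran from -3.02 to -2.68 for Cd83, from -1.77 to -1.39 for Gadd45b and from -1.59 to -1.28 for Sdc4. For Icam1 the range was -1.33 to -1.22 and for Cd44 -0.98 to -0.71.

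**Figure D3:**
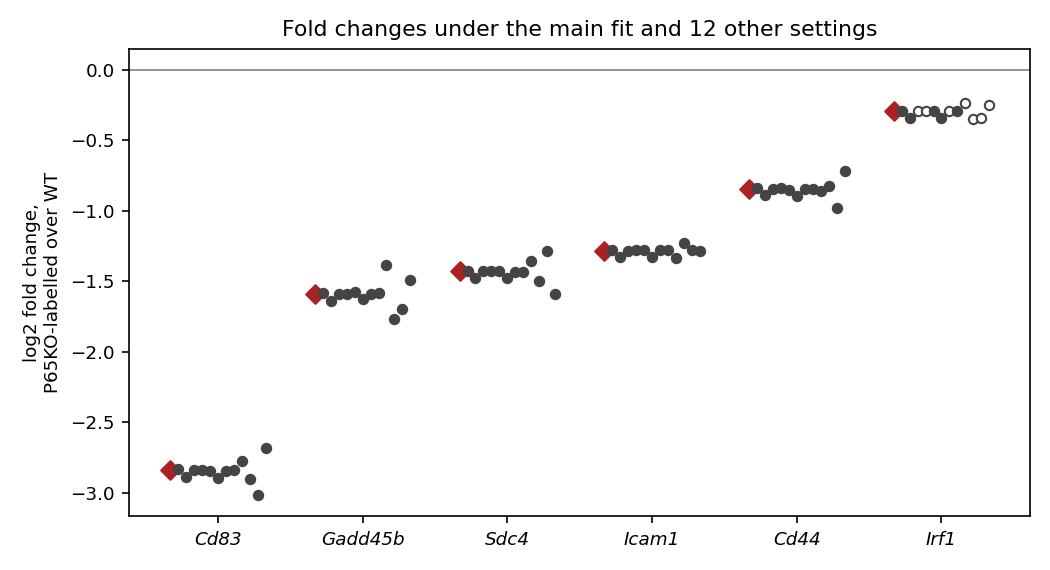
Log2 fold change of the 6 tested genes, P65KO-labelled over WT, in the main fit (red diamond) and under 12 other settings of scaling, filter, test, block or left-out library (circles). Filled symbols passed an adjusted p of 0.05 and open ones did not. Only Irf1, at -0.29 in the main fit, has open circles (7 of 12).

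Per length, the order of the 8 genes differed between the groups. On the deposited RPKM scale, which adds 0.5 to each count, Cd83 had the highest WT level at 120 and 108, followed by Irf1 at 113 and 103, and these ranges overlapped. Cd44 at 46.2 and 46.6, Icam1 at 38.1 and 40.5, Gadd45b at 28.4 and 21.5 and Sdc4 at 13.9 and 12.5 RPKM followed without overlap. In the P65KO-labelled pair Irf1 was highest at 88.5 and 81.8 RPKM and Cd44 next at 27.5 and 22.6. There the range of Cd83 overlapped that of Icam1, with 17.3 and 13.6 against 15.7 and 15.6 RPKM. Gadd45b and Sdc4 kept their places at 8.68 and 7.43 and at 4.29 and 5.23 RPKM. Ier3 and Cd40 were lowest in both groups, at or below 2.62 RPKM.

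Cd40 encodes the TNF receptor family member of B cells, dendritic cells and macrophages through which CD40 ligand on T cells acts (Entrez gene 21939, chromosome 2, 165055614 to 165071654). It had counts of 1 and 4 in WT and of 21 and 10 in the P65KO-labelled pair, or 0.217 and 0.861 against 4.63 and 2.21 CPM. Its direction was thus opposite to that of the 6 tested members, at a level far below theirs. The ratio of summed counts, P65KO-labelled over WT, was 6.34 (exact 95% conditional binomial interval 2.44 to 20.9, counting error only). With no filter on low counts it did not pass (edgeR, Benjamini-Hochberg adjusted p = 0.140), nor with DESeq2 (adjusted p = 0.171). It passed only without P65KO-labelled replicate 2 (edgeR, Benjamini-Hochberg adjusted p = 0.0212), which leaves the P65KO-labelled library with 21 counts. It could not be tested without P65KO-labelled replicate 1.

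Markers of myeloid and dendritic cells moved in the same direction as Cd40. The summed level of 20 such markers was 161 and 221 CPM in WT and 1083 and 372 CPM in the P65KO-labelled pair. Of 13 tested markers, 9 rose and none fell, where 9.0% of all genes tested rose and 11.7% fell. The filter keeps a gene with enough counts in 1 group alone. Markers scarce in WT could thus enter the 13 through the P65KO-labelled pair, which favours rises. With no filter, all 20 were tested. The number that rose was 2 with no filter, 2 when either WT library was left out, 6 without P65KO-labelled replicate 1 (where 1 fell), 6 with DESeq2 and 14 without P65KO-labelled replicate 2. Itgax (CD11c) had counts of 19 and 35 in WT and of 427 and 219 in the P65KO-labelled pair, and Flt3, the receptor of dendritic cell development, had 4 and 10 against 78 and 28. Like Cd40, both were highest in P65KO-labelled replicate 1. The dendritic and plasmacytoid genes Clec9a, Xcr1 and Siglech had 10 counts or fewer in every library. Of the B cell markers, Pax5 and Ebf1 had 0 counts in all 4 libraries, while 3 of 4 tested B markers, Cd79b, Cd22 and Ighm, fell. Of these, Cd79b alone fell with no filter, with DESeq2 and when either WT library was left out, and 2 fell without P65KO-labelled replicate 2. The summed level of the 12 B markers was 1103 to 1120 CPM in WT and 502 to 792 CPM in the P65KO-labelled pair. The part of myeloid transcripts in the counts of Cd40, or in those of Cd83 and Icam1, which such cells also express, was not tested. It was not tested for any gene below either.

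**Figure D4:**
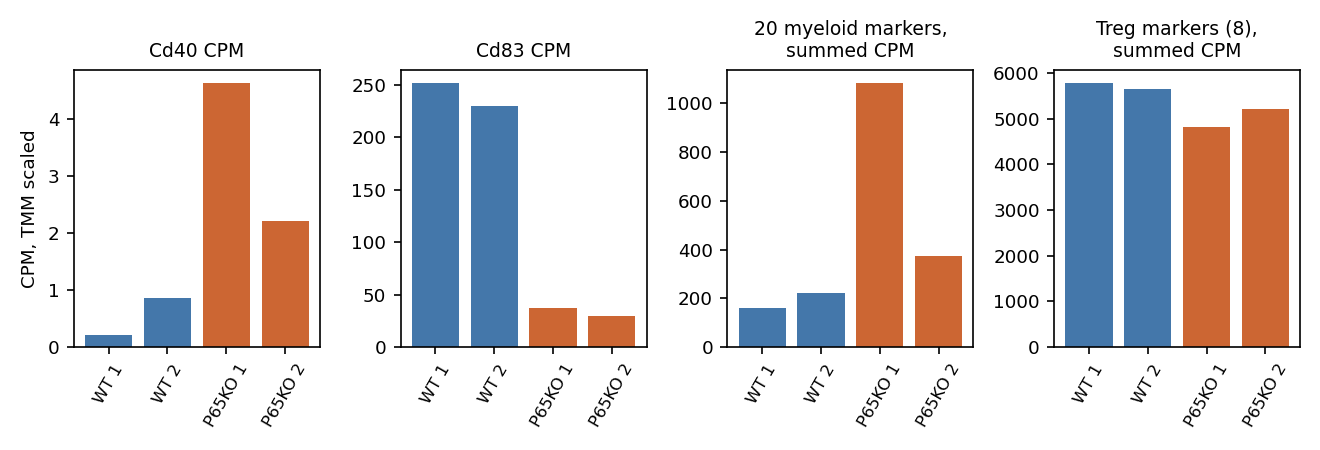
Bars give, for each of the 4 libraries, TMM-scaled CPM of Cd40, of Cd83, of 20 myeloid and dendritic markers summed and of 8 Treg markers summed, each on its own axis from 0. Cd40 and the myeloid sum are highest in P65KO-labelled replicate 1 (4.63 and 1083 CPM), whereas Cd83 is high only in the WT libraries.

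Ier3 encodes a short-lived stress protein induced by NF-kB that modulates cell death (Entrez gene 15937, chromosome 17, 35821713 to 35822911). It had counts of 3 and 1 in WT and of 5 and 0 in the P65KO-labelled pair. The groups overlapped around the counting floor, so a difference was not detectable at this depth and no fold is given. Its promoter, shown above, held 2 kB matches.

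Relatives of the members moved in both directions. In the GADD45 family, Gadd45a stood at 6.05 and 8.95 CPM and Gadd45g at 5.84 and 10.7 CPM in WT and the P65KO-labelled pair, and neither passed the test (edgeR, Benjamini-Hochberg adjusted p of 0.189 and 0.0765). Gadd45b was the 1 of 3 that passed in the main fit, and Gadd45g passed, upward, with either replicate block and without P65KO-labelled replicate 1. Of the immediate early response genes, Ier5 fell 1.42-fold, from 308 to 216 CPM, while Ier2 at 138 and 123 CPM did not pass. Ier5l fell from 7.78 to 0.884 CPM. It had counts of 33 and 39 in WT and of 5 and 3, near the floor, in the P65KO-labelled pair, and passed the filter through WT alone. Of the syndecans, Sdc3 rose from 24.0 to 37.2 CPM, against the fall of Sdc4. The Sdc3 call ended in 6 of 12 other settings, namely DESeq2, limma-trend, no filter and leaving out either WT library or P65KO-labelled replicate 1 (largest Benjamini-Hochberg adjusted p = 0.143). Sdc1 and Sdc2 had 11 counts or fewer in every library.

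Among the interferon regulatory factors, Irf4, the factor of effector Treg differentiation, fell 2.51-fold from 112 to 44.6 CPM. Irf2, which competes with IRF1 for the same sites, stood at 172 and 173 CPM and did not pass. Of 22 tested genes induced by interferon-gamma and IRF1, 10 fell and 1 rose, where 11.7% and 9.0% of all genes tested did. The other 11 of these 22 did not pass, and the median log2 fold change of the 22 was -0.27. The largest falls were those of the chemokine gene Cxcl10, from 18.4 to 1.66 CPM, and of Casp1, the inflammasome protease, 2.0-fold. The GTPase genes Gbp3 and Gbp5 fell 1.39-fold and 1.36-fold, and both calls ended with DESeq2, with no filter and in 3 of the 4 fits that left out a library. Ciita, the MHC class II transactivator, rose from 2.70 to 16.8 CPM, in the libraries with more myeloid transcripts, and its call ended with no filter. The number that fell was 4 without WT replicate 1, 2 without WT replicate 2, 3 without P65KO-labelled replicate 1 and 4 when P65KO-labelled replicate 2 was the one left out. It was 3 with no filter and 5 with DESeq2.

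Integrin partners of ICAM-1 moved unevenly. Itgal, the alpha chain of LFA-1, fell 1.58-fold from 1453 to 921 CPM, whereas Itgb2, its beta chain, stood at 948 and 909 CPM and did not pass (edgeR, Benjamini-Hochberg adjusted p = 0.714). Icam5, a telencephalic ICAM, fell from 4.54 to 0.663 CPM, a call lost without WT replicate 1 or 2 and with DESeq2. It had 21 counts in each WT library and 2 and 4 in the P65KO-labelled pair, and passed the filter through WT alone. Icam2, the constitutive LFA-1 ligand, rose 1.29-fold, from 71.2 to 91.8 CPM, and lost its call without any 1 of the 4 libraries, with no filter and with DESeq2 (largest Benjamini-Hochberg adjusted p = 0.212). Itgam and Itgax, the alpha chains of myeloid beta-2 integrins, rose 2.90-fold and 12.2-fold, in the libraries with more of the other myeloid markers, and the Itgam call ended in 5 of 12 other settings. The P65KO-labelled pair had 0.432 and 0.450 Icam1 counts per Icam2 count, against 1.30 and 1.46 in WT.

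On the CD40 side, Cd40lg, the ligand made by T cells, stood at 37.8 and 41.8 CPM and did not pass. The adaptor genes Traf1, Traf3 and Traf5 fell 1.43-fold, 1.44-fold and 1.29-fold, and Traf2 and Traf6 did not pass. Of these calls, that of Traf1 was lost without the low-count filter and without WT replicate 1, that of Traf3 also without P65KO-labelled replicate 2, and that of Traf5 with DESeq2, with no filter and without any 1 library. Cd86, a costimulatory ligand that CD83 stabilises at the surface, fell 1.84-fold, from 48.4 to 26.3 CPM, and Cd80 had 16 counts or fewer in every library and did not pass. On the CD44 side, the ERM genes that link CD44 to actin did not fall: Ezr rose 1.44-fold and Msn 1.26-fold, while Rdx did not pass. The Msn call ended when either WT library or P65KO-labelled replicate 2 was left out, with limma-trend and with no filter. The Ezr call was lost with no filter or without WT replicate 2. The hyaluronan genes Has1, Has2 and Has3 and Hyal1 had 3 counts or fewer in every library, and Hmmr and Hyal2 did not pass.

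**Figure D5:**
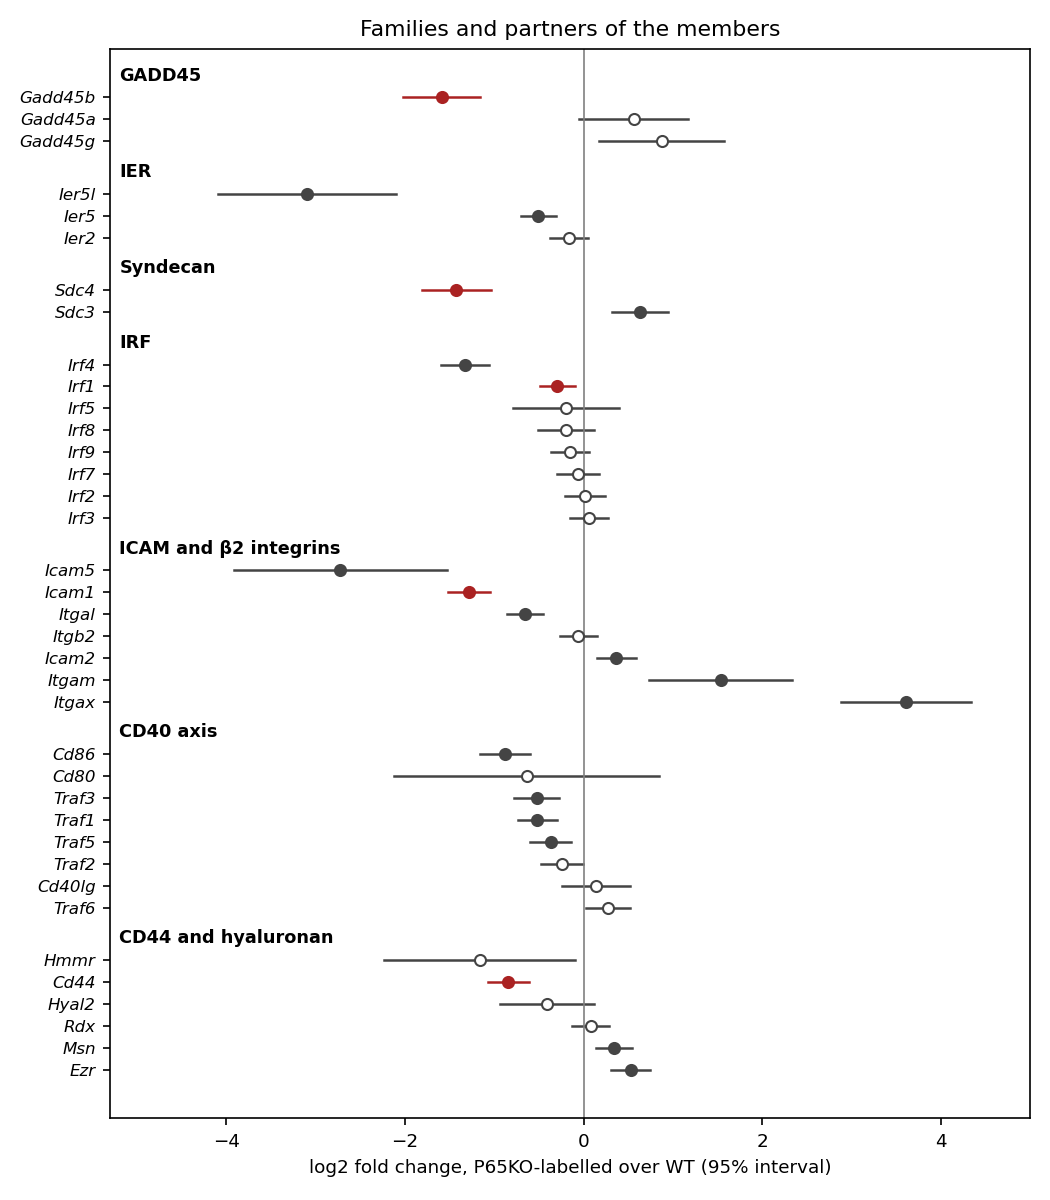
Log2 fold change, P65KO-labelled over WT, with 95% intervals for tested genes of 7 families or partner groups, the genes described above in red and the rest in grey. Filled points passed an adjusted p of 0.05 and open points did not: Gadd45b, Sdc4 and Icam1 lie left of 0 while Sdc3 and Icam2 lie right of it.

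Other genes of the NF-kB system fell more often than they rose. Over all genes tested, 11.7% fell and 9.0% rose. The lists were chosen with earlier results of these data known, and some genes, such as Cxcl10, are in several lists. The counts are thus not independent support. Of 18 subunit, inhibitor and kinase genes, 10 fell and none rose, while 8, including Rela, did not pass, with a median log2 fold change of -0.36. Tnfaip3 (A20), Nfkb2, Relb and Nfkbia, each a kB target itself, fell 2.57-fold, 2.20-fold, 2.02-fold and 1.98-fold. The number that fell was 6 with no filter, without WT replicate 1 and without P65KO-labelled replicate 2. Of 42 tested textbook targets other than the members, these 4 among them, 20 fell, 7 rose and 15 did not pass, with a median of -0.41. Cxcl10 and Ebi3, a cytokine subunit, fell most, Ebi3 from 23.2 to 3.43 CPM, followed by Ccl5, a chemokine, from 68.2 to 19.0 CPM and Tnfrsf1b (TNFR2), 2.57-fold. Ccnd1 (cyclin D1) rose from 4.32 to 43.9 CPM, Tgm2, a transglutaminase, from 12.9 to 38.0 CPM and Ccr7, a lymph node homing receptor, 1.89-fold. Ccnd1, Tgm2 and Plaur were highest in P65KO-labelled replicate 1, as were Cd40 and the myeloid sum, while Ccr7 was not. The part of myeloid transcripts in these rises was not tested. Plaur, the urokinase receptor, had counts of 1 and 5 in WT and of 26 and 12 in the P65KO-labelled pair, and passed the filter through that pair alone. Its call ended with DESeq2, with no filter and when either WT library or P65KO-labelled replicate 1 was left out, and that of Tgm2 without the low-count filter and without WT replicate 2. The number that rose was 3 without WT replicate 1 and 2 without WT replicate 2 or with no filter.

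Immediate early genes, which rise on receptor signalling and on cell handling, moved unevenly. Of the 15 tested, 5 fell and 1 rose, where 11.7% and 9.0% of all genes tested did. The other 9 did not pass, and the median of the 15 was -0.12. Egr2, a zinc finger factor of T cell receptor signalling, fell 2.43-fold, Junb, an AP-1 subunit, 1.96-fold and Dusp1, a MAP kinase phosphatase, 1.95-fold. Nr4a2, a nuclear receptor, fell from 5.40 to 2.21 CPM, a call lost without any 1 of the 4 libraries, with no filter, with DESeq2 and with limma-voom. Jun, by contrast, rose 3.23-fold, from 11.1 to 36.0 CPM. With no filter, with DESeq2 or without any 1 library, 3 fell. Fos, Fosb and Egr1 did not pass.

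Cd44 is also used to tell effector from naive T cells. All 16 effector Treg markers tested fell, with a median log2 fold change of -2.66, of which 15 fell with no filter and 14 without WT replicate 2. Of 12 naive and central markers, 10 rose, 1 fell and 1 did not pass, with a median of 0.90. Among all genes tested 11.7% fell and 9.0% rose. Both marker lists were chosen with earlier results of these data known, so these counts are not independent support. Klrg1 and Tigit, inhibitory receptors of effector cells, fell 42.2-fold and 35.7-fold, and Il1rl1, the interleukin-33 receptor, fell from 72.0 to 4.30 CPM. Il10 had 41 counts in WT and 1 in the P65KO-labelled pair, or 40.1 times as many after scaling (95% interval 6.80 to 1622, exact, counting error only), and its call was lost without WT replicate 2. Igfbp4, Ly6c1 and Satb1 rose 3.43-fold, 3.0-fold and 2.52-fold, and Il7r, the interleukin-7 receptor, fell 1.89-fold. The log2 fold change of Cd44 was -0.84, and how far the share of effector cells in the sort enters any member's fall was not tested.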

How the data were processed

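The submitters' processing notes name Subread, featureCounts, limma and the build GRCm38 (mm10). Their versions, the annotation and the strand setting were not given in the sources used here. Per the labels' protocols, an RNeasy Plus Mini kit and then a TruSeq RNA kit were used. Raw counts for each Entrez gene were deposited, and the authors also gave a log2 RPKM value per gene and library. Recomputed gene lengths differed by at most 0.01 bases between libraries for 27179 genes when 0.5 was added to each count, so both hold the same counts.

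Sample titles gave the groups. The labels do not say whether replicates were separate mice, so p-values measure the spread of these libraries alone, and it may be technical. Within a group, libraries varied beyond counting noise: chi-square over its degrees of freedom was 2.96 for WT and 3.37 for P65KO. Counts were filtered with filterByExpr, scaled by TMM and tested in R 4.3.3 by edgeR 4.0.16 (quasi-likelihood F, both directions), adjusted by Benjamini-Hochberg at 0.05. Genes rose or fell only where they passed. The 95% intervals take the log2 fold change over the square root of F as its standard error. Other settings used DESeq2 1.42.0 and limma 3.58.1. The script was tested on simulated counts. Intervals and floors from counts cover counting error only. The members and lists were chosen with earlier results of these data known. Lists held 227 symbols, of which 1 (Hbb-bt) was absent. They covered the member families and partners, NF-kB genes and targets, interferon-gamma targets, immediate early genes, effector and naive markers, and markers of Treg, B, myeloid, CD8 T, NK, erythroid and stromal cells. Members and all tested genes of the small families could be named, and of longer lists the 4 called genes with the largest fall and rise. A few genes of these lists are not reported here.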

Additional observations from a re-analysis of the deposited data

How the results depend on the processing

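Over all genes, 2310 changed in the main fit (1305 lower, 1005 higher), 771 with no filter on low counts, 1219 with DESeq2 and from 743 to 1633 with a library left out (743 without WT replicate 2, 771 without WT replicate 1, 1490 without P65KO-labelled replicate 2). With no scaling beyond library totals, 1485 were lower and 823 higher. With limma-trend on the deposited log2 RPKM values, which changes the test as well, 1133 were lower and 569 higher. Of the members, 5 or 6 changed under every setting tried: Irf1 lost its call in 7 of 12 and the other 5 tested members in none, and no tested member reversed. Without P65KO-labelled replicate 2, the 6 were 5 lower and Cd40 higher. In the main fit 6 of 6 members tested changed, beside 2310 of 11172 genes. With no filter it was 5 of 8 members, beside 771 of 16183 genes (525 lower, 246 higher). With DESeq2 it was 5 of 7 members, beside 1219 of 12553 genes (673 lower, 546 higher). With the replicate block, 2319 of 11172 genes changed and 5 of 6 members, Irf1 being lost. Nothing in the labels pairs the numbers, and the deviations of same-numbered libraries from their group means had a weak negative correlation (-0.137 over 11172 genes). A crossed replicate block, added after seeing the data, gave 2973 genes and 6 members. Of the 6 promoters, counted by 1 start each, 3 held a kB pattern within 100 bases of the start, as did 4.34% of all starts. Where a library was left out, its lone partner was taken to vary like the other group. The cause of these changes was not tested. Depth limits Ier3 and Cd40, with 0 to 21 counts a library.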

Other observations

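Further genes lay close to the members. Over the 4 libraries, the log2 CPM of each tested member, centred on its own mean, was compared with that of 7162 genes of at least 20 CPM. The closest to Cd83 were Stx11, a syntaxin of granule release, at 90.1 and 93.0 CPM in WT and 13.0 and 11.7 CPM in the P65KO-labelled pair, and Ccr4, a skin homing receptor and 1 of the effector markers, at 132 and 128 against 21.2 and 18.6 CPM. Closest to Sdc4 were Myo1e, a class I myosin, at 77.0 and 70.1 against 25.1 and 29.7 CPM, and Tiam1, an exchange factor for Rac. Gadd45b was closest to Casp4, an inflammatory caspase, at 50.1 and 42.4 against 16.5 and 15.5 CPM, and to Mmd. For Icam1 they were Lipo1 and Slc9a7, for Cd44 Scly and Cdc25b, a cell cycle phosphatase. The 2 closest to Irf1, Mettl10 and Hspa4l, did not pass the test themselves. The measure rests on 4 libraries in 2 groups. These genes were picked by it, so their likeness to the member in level change follows from the choice.

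Counted against Cd4 in the same library, Cd83 had 0.218 and 0.220 counts per Cd4 count in WT and 0.0389 and 0.0288 in the P65KO-labelled pair. Cd44 had 0.222 and 0.25 against 0.164 and 0.127. For Irf1 the ratios were 0.323 and 0.328 against 0.313 and 0.273, a narrower gap than in CPM. Markers of further cell types differed in direction. Among all genes tested, 9.0% rose and 11.7% fell. As for the myeloid markers, the filter can let in a gene through 1 group alone. With no filter, 3 of the 4 erythroid markers below rose. All 4 tested erythroid markers rose, from a summed 21.3 and 27.8 CPM to 105 and 192 CPM, and 2 of them rose when either WT library was left out. Of 4 tested NK markers only Klrb1c fell (not without WT replicate 2), and 3 did not pass, at a sum of 23.0 and 30.3 against 19.0 and 15.9 CPM. Cd8b1, the 1 tested CD8 T cell marker, did not pass, and Cd8a had 11 counts or fewer in every library. The 1 tested stromal or endothelial marker, Pecam1, which T cells also express, rose 1.5-fold, a call lost with no filter and when replicate 2 of either group was left out, and Cdh5, Col3a1, Ccl19 and Pdpn had at most 1 count. Of the 8 Treg markers, Ikzf2, Ctla4 and Trac fell, Il2ra rose and 4 did not pass. Trac lost its call without any 1 library, with no filter, with limma-trend and with the replicate block. Il2ra lost its call without either WT library or P65KO-labelled replicate 2, with no filter and with limma-trend.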
